A study of Mus musculus with 2 samples.

Results

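Cathepsins are a group of lysosomal proteases. The mouse genes described here are 10 of them, namely Ctsa, Ctsb, Ctsc, Ctsd, Ctse, Ctsf, Ctsh, Ctsl, Ctss and Ctsz. The members were chosen by the RefSeq accession that each array probe carries, with earlier results of the same arrays known, so every value below is a description of the scaled signals that served in that choice. Of the 10 genes, 9 had a probe on the array, out of 18434 genes named in this way, and Ctse, an aspartic protease, was not analysed here. The study cultured CD4 T cells from the spleen of wild type C57BL/6 mice under 2 cytokine conditions and measured messenger RNA on 1 single-colour Agilent array per condition. Th9+IFNgamma cultures received 3 ng/ml IL-4, 3 ng/ml TGFbeta and 10 ng/ml IFNgamma. Th9 cultures received 10 ng/ml IL-4, 3 ng/ml TGFbeta and 1 µg/ml of an antibody that blocks IFNgamma. Antibodies against the T cell receptor and CD28 activated all cells for 2 days, and growth went on for another 3 days. The conditions thus differ in the IL-4 dose, the added IFNgamma and the antibody, and the effects of these 3 cannot be told apart. The number of mice behind a culture is not given in the labels, and there was no replicate of either condition.

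Cathepsins are made as inactive precursors, carried to the lysosome, and activated there when acid and other proteases remove a propeptide. Most belong to the papain family of cysteine proteases (Ctsb, Ctsc, Ctsf, Ctsh, Ctsl, Ctss and Ctsz), while Ctsd and Ctse are aspartic proteases and Ctsa is a serine carboxypeptidase. In immune cells they degrade endocytosed protein, trim the invariant chain of MHC class II molecules and activate the granzymes of cytotoxic granules, and they are held in check by cystatins, certain serpins and, in mouse T cells, the CTLA-2 proteins.

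The cathepsin genes differed widely in how they compared between the cultures. Ctsf, Ctsl and Ctsh had much lower signals in Th9+IFNgamma, Ctsb and Ctsa were somewhat lower, Ctss was slightly lower, Ctsd and Ctsz were nearly equal, and Ctsc was higher. Of the 9 measured genes, 3 were lower by 2-fold or more in Th9+IFNgamma, 0 were higher by 2-fold or more and 6 lay within 2-fold. Of all 12272 genes measured on both arrays, 7.42% were lower and 5.15% higher by this margin, and nothing is read from the contrast with the members, which were chosen with these values known. The median log2 difference, Th9+IFNgamma minus Th9, was -0.48 for the cathepsins and -0.01 for all genes. All 14 cathepsin probes were well above background on both arrays. A scaled signal is the processed intensity after both arrays were brought to the same 75th percentile, and it compares 1 probe between arrays, not different probes with each other. The error that the scanner software attached to a cathepsin log2 difference was 0.20 to 0.30. Single spots of probes printed 10 times scattered about their probe's mean log2 difference with an SD of 0.21 for the dimmest signals (below 64), 0.08 for signals up to 1024, and 0.04 for brighter ones. Neither yardstick includes variation between cultures or mice.

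**Figure D1:**
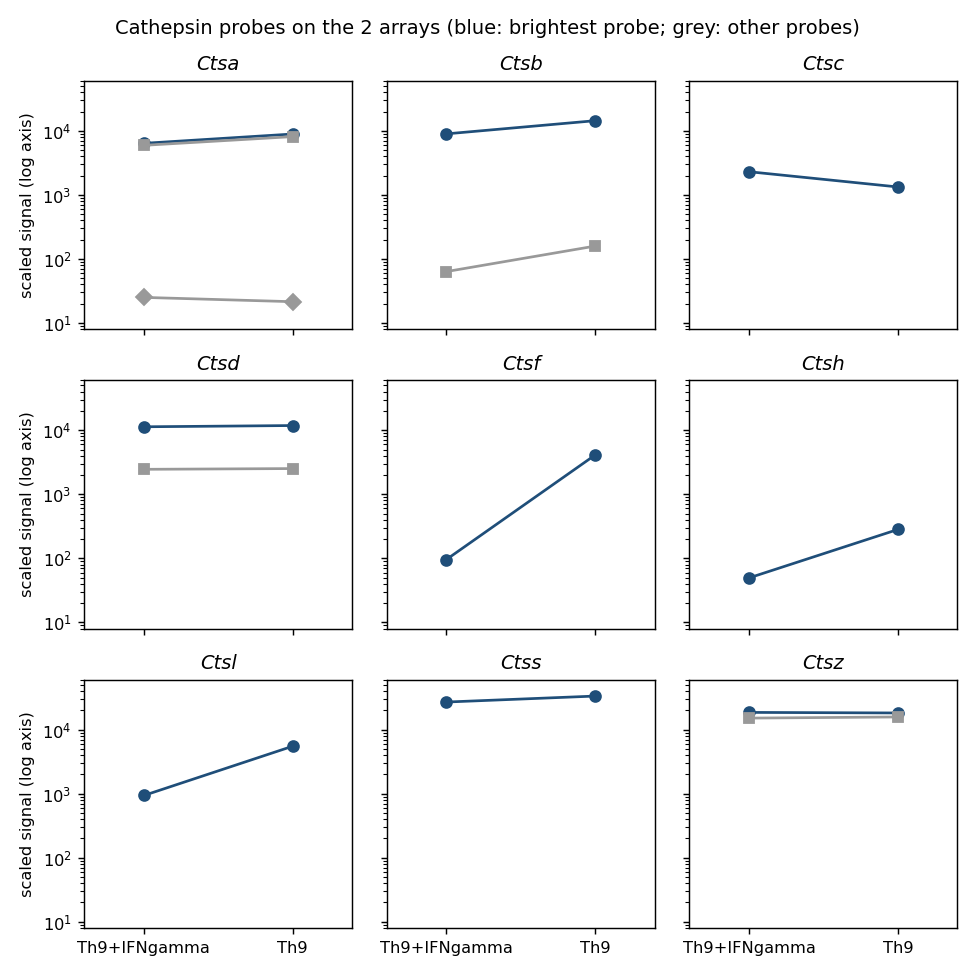
Scaled signal (log axis, arbitrary intensity units) of every cathepsin probe on the Th9+IFNgamma array (left) and the Th9 array (right), 1 panel per gene, with the brightest probe in blue and other probes in grey. Ctsf, Ctsh and Ctsl slope steeply towards lower values in Th9+IFNgamma, Ctsd and Ctsz are flat, and the dim probes of Ctsa and Ctsb differ from their bright probes.

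Ctsf encodes cathepsin F, a papain-family protease with an unusually long propeptide. Its probe read a scaled signal of 95.7 in Th9+IFNgamma, against 4119 in Th9. The difference was 43.0-fold (log2 -5.43 with a software error of 0.21), and among 12272 genes only 4 had a lower value. With normexp, a background correction that shrinks differences of dim spots, it was -4.80. The genes nearest to Ctsf in log2 difference, a likeness over 2 arrays only, were Tmem176a (46.5-fold lower) and Gatm (117 in Th9+IFNgamma against 5375 in Th9), which had slightly larger differences in the reported setting. On the other side stood Map3k20 (15.1 against 643) and Tmem176b (95.8 against 4020). With normexp the log2 differences were -4.45 for Tmem176a, -4.93 for Gatm, -3.13 for the dim Map3k20 and -4.58 for Tmem176b, so the order of these genes around Ctsf is not fixed. Tmem176a and Tmem176b encode related membrane proteins, and Gatm encodes an enzyme of creatine synthesis.

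Ctsl encodes cathepsin L, an endoprotease that also degrades the invariant chain in the thymic epithelium. It had a scaled signal of 935 in Th9+IFNgamma, against 5502 in Th9. This was a 5.88-fold lower value (log2 -2.56, software error 0.20), and it stayed between -2.60 and -2.44 over all settings tried. Ctsh encodes cathepsin H, an aminopeptidase. Ctsh had a scaled signal of 49.4 in Th9+IFNgamma, against 282 in Th9, a 5.72-fold lower value (log2 -2.51, software error 0.22). It lay near the dim end of the scale, where the lowest signal well above background was 11.1 in Th9+IFNgamma and 12.5 in Th9. With normexp the log2 difference was -1.70. These 3 genes were each read by 1 probe, so no second probe of the same gene bears on them. Settings that filter or combine probes thus could not change their values.

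The RefSeq promoters of Ctsf and Ctsl are shown because these genes had the 2 largest differences of the family. Each covers 250 bases before to 50 bases after the start of the gene, in build GRCm38.p6. The Ctsf window is chr19:4854915-4855214 on the plus strand and the Ctsl window chr13:64370471-64370770 on the minus strand. Capitals mark CACGTG, the E-box at the core of the CLEAR element, to which the lysosomal regulator TFEB and its relatives bind.
Ctsf: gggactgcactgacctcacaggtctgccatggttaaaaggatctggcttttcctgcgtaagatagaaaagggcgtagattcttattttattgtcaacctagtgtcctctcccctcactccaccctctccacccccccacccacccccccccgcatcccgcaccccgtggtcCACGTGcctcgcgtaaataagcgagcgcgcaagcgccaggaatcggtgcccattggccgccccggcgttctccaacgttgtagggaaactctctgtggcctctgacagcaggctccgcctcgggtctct
Ctsl: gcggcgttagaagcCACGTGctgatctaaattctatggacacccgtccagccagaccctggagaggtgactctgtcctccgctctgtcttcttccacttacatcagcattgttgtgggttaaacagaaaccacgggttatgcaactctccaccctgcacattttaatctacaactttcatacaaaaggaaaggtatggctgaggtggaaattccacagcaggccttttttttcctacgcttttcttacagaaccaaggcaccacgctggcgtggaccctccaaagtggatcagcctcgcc
The E-box begins at -79 in Ctsf and at -236 in Ctsl, counted with the first base of the gene as 0.

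Ctsb and Ctsa were lower by less than 2-fold. Ctsb encodes cathepsin B, an endoprotease and carboxydipeptidase, and its bright probe read 8979 in Th9+IFNgamma, against 14423 in Th9 (1.61-fold lower, log2 -0.68). Its dim probe read 63.5 against 159, a 2.50-fold lower value (log2 -1.32, or -0.81 with normexp). The gap of 0.64 between these probes was larger than in 92.6% of the 4415 genes with several measured probes, whose median gap was 0.13. Ctsb passes 2-fold only by its dim probe or by the median of both probes.

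Ctsa encodes cathepsin A, which protects beta-galactosidase and neuraminidase in a lysosomal complex. Its bright probes read 6391 in Th9+IFNgamma against 8932 in Th9, and 5943 against 8132 (log2 -0.48 and -0.45). These bright probes differed from each other by 0.03. The dimmest probe was close to background and had the opposite sign, at 25.1 in Th9+IFNgamma against 21.5 in Th9 (log2 0.23, software error 0.30). With normexp the log2 difference of this dim probe was -0.05. The genes of beta-galactosidase and neuraminidase were also lower in Th9+IFNgamma. Glb1, the beta-galactosidase gene, read 3969 against 9626 (2.43-fold lower). Neu1, the neuraminidase gene, named after its value was seen, read 6280 against 10977 (1.75-fold lower).

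Ctss, Ctsd and Ctsz had the smallest differences of the family. Ctss encodes cathepsin S, the protease that completes invariant chain removal in antigen-presenting cells. Its probe read 26927 in Th9+IFNgamma, against 33382 in Th9 (1.24-fold lower, log2 -0.31, software error 0.20), and its log2 difference lay between -0.39 and -0.20 over all settings. Ctsd, the aspartic protease cathepsin D, read 11317 against 11835 by its bright probe and 2453 against 2519 by its other probe (log2 -0.06 and -0.04). Ctsz encodes cathepsin Z, a carboxypeptidase, and read 18550 in Th9+IFNgamma against 18180 in Th9 (log2 0.03), with 15112 against 15745 for its other probe (log2 -0.06). The differences of Ctsd and Ctsz were smaller than the software error for every probe, and their sign was not the same in all settings.

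Ctss and Ctsd are shown as members within 2-fold whose windows hold a motif searched here. In Ctss the capitals mark the core of an interferon-stimulated response element (GAAANNGAAA), which begins at -21, and in Ctsd they mark 2 E-boxes, at -245 and -98. The windows are chr3:95526536-95526835 on the plus strand for Ctss and chr7:142387778-142388077 on the minus strand for Ctsd.
Ctss: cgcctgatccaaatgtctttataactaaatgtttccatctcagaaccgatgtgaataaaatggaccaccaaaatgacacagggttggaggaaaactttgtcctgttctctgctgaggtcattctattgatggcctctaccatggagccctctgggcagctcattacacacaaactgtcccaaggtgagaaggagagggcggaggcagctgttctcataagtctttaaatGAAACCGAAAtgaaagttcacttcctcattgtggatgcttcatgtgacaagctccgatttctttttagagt
Ctsd: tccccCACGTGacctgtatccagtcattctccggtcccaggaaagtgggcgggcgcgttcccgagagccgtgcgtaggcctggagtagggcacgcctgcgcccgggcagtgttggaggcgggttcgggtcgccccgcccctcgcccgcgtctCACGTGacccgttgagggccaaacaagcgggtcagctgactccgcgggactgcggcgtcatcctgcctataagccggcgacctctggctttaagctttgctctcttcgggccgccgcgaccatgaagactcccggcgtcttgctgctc

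Ctsc was the member with the highest log2 difference. It encodes cathepsin C, the dipeptidyl peptidase that activates granzymes by removing their N-terminal dipeptide. Its only probe read 2302 in Th9+IFNgamma, against 1331 in Th9, a 1.73-fold higher value (log2 0.79, software error 0.20). The difference exceeded that of 92.1% of all genes and stayed between 0.75 and 0.91 over the settings, under 2-fold in each. Genes with a difference nearest to that of Ctsc were Hmmr, Aurkb, Ttc23 and Tns1, each at 0.79, a value that many genes share. The Ctsc promoter, chr7:88277835-88278134 on the plus strand, is shown because it holds a GAS (TTCNNNGAA), the gamma-interferon activation site. It is in capitals and begins at -236. Among the 7 members with a window at hand, Ctsc alone holds it. A GAS was present in 8.30% of all mouse promoter windows and in 7.08% of those of measured genes. Whether it bears on the Ctsc difference was not tested.
Ctsc: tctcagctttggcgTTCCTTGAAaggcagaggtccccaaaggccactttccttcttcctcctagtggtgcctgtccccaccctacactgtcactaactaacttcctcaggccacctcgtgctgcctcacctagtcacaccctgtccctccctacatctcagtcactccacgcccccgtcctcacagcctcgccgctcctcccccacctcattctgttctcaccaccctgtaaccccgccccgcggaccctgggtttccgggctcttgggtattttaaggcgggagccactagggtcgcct

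RefSeq promoter windows were at hand for 7 of the 10 genes, 8 windows in all, since Ctsa has 2 starts. CACGTG on either strand was present in 4 of the 8 windows, those of Ctsd, Ctsf, Ctsl and the downstream start of Ctsa. It was present in 7.15% of 32851 mouse promoter windows of the same length, and in 9.85% of those of measured genes. The members that hold it include Ctsf and Ctsl, both over 5-fold lower in Th9+IFNgamma, and Ctsa and Ctsd, both within 2-fold. The GAS was present in 8.30% of all windows, the response element core in 3.44%, and the related STAT6-type motif TTCNNNNGAA in 6.95% and in 0 of the 8 member windows. These matches are letters in a window and say nothing about binding. The median GC content was 60.0% in the member windows and 52.7% in all windows.

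**Figure D2:**
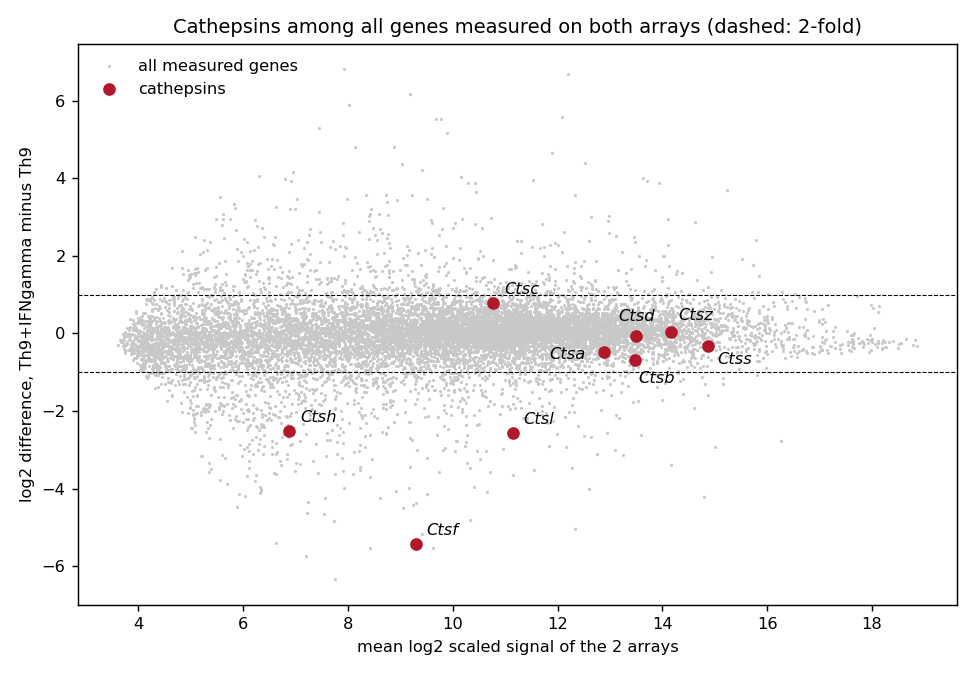
Log2 difference, Th9+IFNgamma minus Th9, against mean log2 scaled signal for 12272 genes (grey) and the 9 cathepsins (red), with dashed lines at 2-fold. Ctsf lies at -5.43 near the lower edge of all genes, Ctsl and Ctsh near -2.5, and the remaining 6 members between the dashed lines.

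Of 10 measured cathepsin inhibitor genes, 3 were lower in Th9+IFNgamma by 2-fold or more and 0 higher by that margin. Their median log2 difference was -0.59. Of all 12272 genes, 7.42% were lower and 5.15% higher by that margin. As the lists here and below were chosen with earlier results known, nothing is read from their contrast with all genes. The CTLA-2 proteins resemble a cathepsin propeptide and inhibit cathepsin L. Ctla2a read 30171 in Th9+IFNgamma, against 205211 in Th9 (6.80-fold lower), and Ctla2b read 11833 against 90775 (7.67-fold lower). Both inhibitor genes and Ctsl were thus lower by 5.88-fold to 7.67-fold. Ctla2a and Ctla2b are near-identical in sequence, so their probes may read RNA of both. Serpinb1a, an inhibitor of neutrophil serine proteases such as cathepsin G, read 707 in Th9+IFNgamma, against 5571 in Th9 (7.88-fold lower). The cystatins measured on both arrays lay within 2-fold. Cst3, which encodes cystatin C, was 1.45-fold lower (8069 against 11731), and Cst7, which encodes cystatin F, an inhibitor of cathepsin C, was 1.07-fold higher (3351 against 3142). The stefin genes Stfa1 and Stfa2, named after their values were seen, were well above background in Th9 alone, at 31.6 and 13.8, which makes them lower in Th9+IFNgamma by at least 2.85-fold and at least 1.24-fold. Such a bound sets the Th9 signal against the lowest one well above background in Th9+IFNgamma. The related gene Stfa3, also named after its value was seen, was well above background on both arrays. It read 25.2 in Th9+IFNgamma against 25.3 in Th9.

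Lgmn encodes legumain, a lysosomal endopeptidase that cleaves several cathepsins into their mature chains. Lgmn read 367 in Th9+IFNgamma, against 3009 in Th9, a log2 difference of -3.04. Of the 8 genes in its list of other lysosomal proteases it was the only gene lower by 2-fold or more, beside 7.42% of all genes. The median of the list was -0.29. Ifi30, which encodes the lysosomal thiol reductase GILT, a known interferon-inducible gene, read 3311 in Th9+IFNgamma against 4347 in Th9 (1.31-fold lower). Of 12 further cathepsin-named genes, 4 were measured and all 4 lay within 2-fold. Ctsw, which encodes cathepsin W of T and NK cells, was higher by 0.58 on the log2 scale (29283 against 19571). Ctsk, known from osteoclasts, and 7 others of that list were well above background on neither array, so most of these genes gave no comparison.

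Most other lysosomal genes lay within 2-fold, as did 10730 of all 12272 measured genes. Of all genes, 7.42% were lower and 5.15% higher by 2-fold or more. Acid hydrolases had 33 measured genes, of which 4 were lower in Th9+IFNgamma by 2-fold or more and 0 higher by that margin, and the median was -0.24. The 4 were Gla, the alpha-galactosidase gene (3.94-fold), Ppt1, a thioesterase gene (2.86-fold), Glb1, and Ids, a sulfatase gene (2.33-fold). Of 12 lysosomal membrane protein genes, Cd63, a tetraspanin gene (87.1 against 494, 5.68-fold, or a log2 difference of -1.83 with normexp against -2.50 as reported), and Slc17a5, a sialic acid transporter gene (2.17-fold, or a log2 difference of -0.81 with normexp), passed 2-fold towards lower values. Lamp1 (7263 against 10391) and Lamp2 (2363 against 3680) lay within 2-fold, and the other probe of Lamp2 had the opposite sign (log2 0.24). All 17 vacuolar ATPase genes, which encode the pump that acidifies lysosomes, lay within 2-fold with a median of -0.01.

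Of 9 genes for lysosomal sorting, Sort1, a sorting receptor, passed 2-fold towards lower values but was dim (14.1 against 29.5), and with normexp its log2 difference was -0.46. Tfeb, the lysosomal master regulator, read 90.2 in Th9+IFNgamma against 88.0 in Th9 (1.03-fold higher), and all 3 measured genes of its list lay within 2-fold. The medians of the membrane, vacuolar ATPase and transcription factor lists, and of the other cathepsin-named genes, were positive in some settings and negative in others, whereas those of the cathepsins, their inhibitors, the other proteases and the hydrolases were negative in all 11. The median of the sorting list was positive in all 11, between 0.03 and 0.17. Beside 5.15% of all genes higher and 7.42% lower by 2-fold, 1 of 5 class II genes that work with cathepsin S passed 2-fold. This was H2-DMa, a peptide exchange factor gene, which was 2.27-fold higher (6191 in Th9+IFNgamma against 2725 in Th9). Cd74, the invariant chain gene, was 1.52-fold higher (1834 against 1203) and H2-DMb1 1.30-fold higher (1696 against 1308). H2-Ab1, a class II beta chain gene, named like H2-DMb1 after its value was seen, was 1.64-fold lower (7501 against 12290), and the probes of H2-Aa differed in sign.

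**Figure D3:**
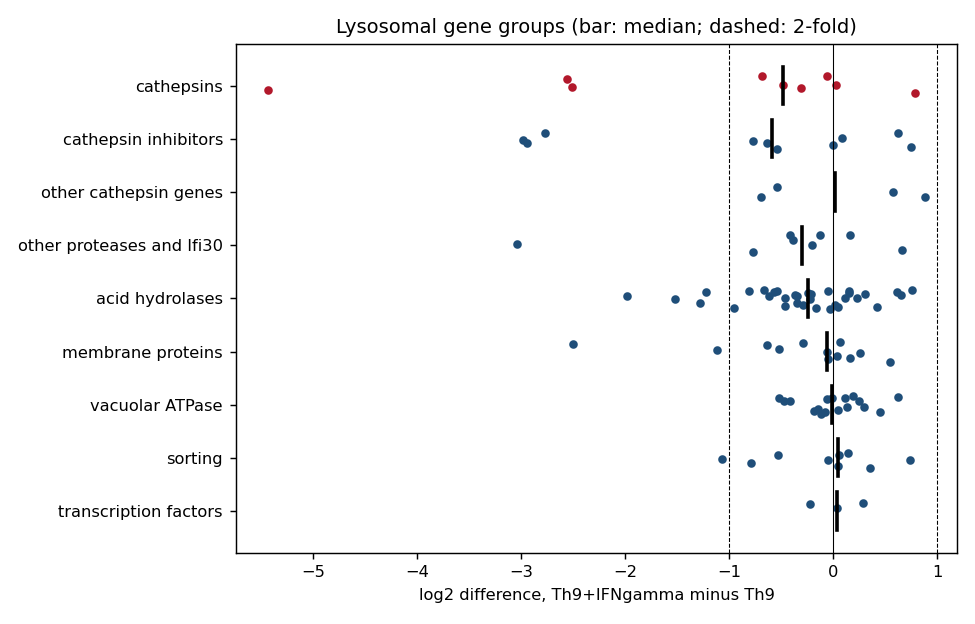
Log2 difference, Th9+IFNgamma minus Th9, of the genes measured on both arrays in each lysosomal group, 1 point per gene, with a black bar at the group median and dashed lines at 2-fold (vertical scatter has no meaning). The cathepsins and their inhibitors have medians of -0.48 and -0.59 and a lower tail beyond -2.5, whereas the vacuolar ATPase genes cluster at a median of -0.01. The lowest gene of the other proteases lies at -3.04 and that of the membrane proteins at -2.50.

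Magnetic sorting gave CD4 T cells of over 98% purity before culture, per the labels. Markers of this cell type were present on both arrays. All 8 T cell genes were well above background and within 2-fold, with Cd4 at 502 in Th9+IFNgamma against 444 in Th9 and Cd3e at 1789 against 1544. Macrophages and dendritic cells, which are rich in cathepsins, were checked by their markers. Of 6 macrophage and monocyte markers, 3 were well above background on both arrays and 3, Lyz2, Itgam and Fcgr1, were below that level on both. The signals of all 6 summed to 94.9 in Th9+IFNgamma, against 250.0 in Th9, a sum that gives brighter probes more weight and includes markers below that level. Adgre1 read 25.8 in Th9+IFNgamma against 186 in Th9 (7.19-fold lower, or a log2 difference of -1.45 with normexp), whereas Csf1r read 34.1 against 34.3 and Cd14 26.4 against 21.3. Of 5 dendritic cell markers with a probe, 3 were well above background on both arrays, and their log2 differences lay between -0.39 and -0.01. Of 6 B cell markers, 3 were measured on both arrays and had log2 differences between -0.66 and -0.45, among them Cd79b at 844 in Th9+IFNgamma against 1187 in Th9. Of 5 neutrophil markers with a probe, Mpo alone was above that level (25.4 against 37.8). Of 3 NK and CD8 T cell markers with a probe, Cd8a (1338 in Th9+IFNgamma against 1074 in Th9) and Klrb1c (20.5 against 39.2) were above it and within 2-fold. The markers other than Adgre1, Fcer1a and Cma1 in this paragraph were named after their values were seen. Among mast cell and basophil markers, Fcer1a (59.2 against 26.7) was higher and Cma1 (20.8 against 74.5) lower in Th9+IFNgamma by over 2-fold, but with normexp the log2 differences were 0.35 and -0.82, both within 2-fold. Cpa3, Mcpt8 and Ms4a2 were not well above background. The part of Adgre1-bearing or other minor cells in the cathepsin differences was not tested. In such bulk RNA, fewer cells that make a transcript and less of it per cell cannot be told apart.

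**Figure D4:**
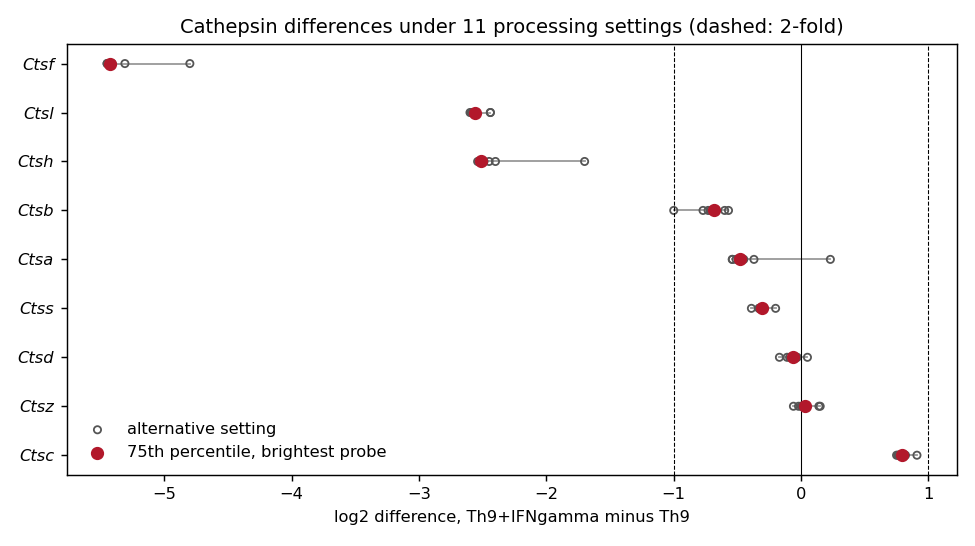
Log2 difference, Th9+IFNgamma minus Th9, of each measured cathepsin under the reported setting (red) and 10 alternatives (open circles), with dashed lines at 2-fold. Ctsf, Ctsl and Ctsh stay beyond 2-fold lower in every setting, Ctsb reaches the dashed line in 1 setting, and Ctsc stays short of it. Settings that filter or combine probes, and the deposited table with the same scaling, cannot move a gene with 1 probe.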

How the data were processed

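The authors deposited scanner intensity values from Agilent Feature Extraction, version 10.7.3.1 by the headers and 10.7 in the submitters' processing notes, which were background-subtracted and detrended within an array and not scaled between arrays. Both arrays lay on 1 slide and were read in 1 scan, per the file headers. The authors' deposited log2 table, with a median of -4.05 in its Th9+IFNgamma column and -3.93 in its Th9 column, matched log2 processed signal minus each array's 75th percentile and served as an alternative.

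The share of the 41174 probes well above background was 60.6% for Th9+IFNgamma and 59.9% for Th9, with 0 saturated spots, and 27050 were named through RefSeq accessions (GRCm38.p6 table). Control spots and 3 probes flagged as outliers were left out. Log2 signals were averaged over a probe's spots, and the 75th percentile (631.9 for Th9+IFNgamma, 567.0 for Th9) was subtracted. Scaled signals are given at a common percentile of 598.6. A gene takes its brightest probe well above background on both arrays. With 1 array per condition there is no test, and the number of arrays limits the precision. The scaling and the gene rule were run on simulated copies of the Th9 array with planted differences beyond 2-fold. The simulated noise was small and the same at all signals. This run therefore does not bear on dim probes or on variation between cultures. Alternatives used limma 3.58.1 in R 4.3.3 and Python 3.11.15. Normexp used the median spot signals (offset 50), because the scanner files have no mean signal, and this alternative was added after seeing the data. Members and gene lists were chosen with earlier results of these arrays known. The text names all members, 12 genes chosen in advance, up to 4 genes per direction from each list whose probes have the same sign, and the genes nearest to Ctsf and Ctsc. A planned macrophage marker is not reported here. Promoter sequences are RefSeq's (GRCm38.p6). The array design names build mm9, and no gene coordinates are compared between builds.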

Additional observations from a re-analysis of the deposited data

How the results depend on the processing

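No replicate could be left out and no paired analysis was possible because each condition has 1 array. Over 10 alternatives, the count of cathepsins lower by 2-fold or more was 3, or 4 with the median over probes, and 0 were higher by that margin in each. The median of the members ranged from -0.54 to -0.31. Ctsf ranged from -5.45 to -4.80, Ctsl from -2.60 to -2.44 and Ctsh from -2.54 to -1.70, with the smallest sizes of Ctsf and Ctsh under normexp. For these 3 genes, each with 1 probe, the settings that filter dim probes or combine probes could not move the value. The deposited table, scaled in the same way, could not either. Ctsa was 0.23 by its probe with the smallest difference, and negative otherwise. Among all genes, 632 were higher and 910 lower by that margin. With no filter on dim probes there were 1205 and 1788, and more genes are then counted. With normexp there were 437 higher and 582 lower, and the cause was not tested. Median scaling moved the median of all genes from -0.01 to 0.11, with 772 higher and 776 lower by that margin. The dim signals of Ctsh and of the dimmest Ctsa probe limit what their values show.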
